A study of Mus musculus with 15 samples.

Results

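The genes described here are 34 markers of the blood vessel wall and of the meninges, taken by symbol from the 32657 features of the count files, where all 34 were present. They comprised 16 endothelial, 4 pericyte, 3 smooth muscle and 11 meningeal fibroblast genes. They were followed through 15 RNA-seq libraries of mouse dentate gyrus (DG) in 6 groups. All animals were adult mice (8 to 12 weeks) on a C57BL/6J background that carried the KI198 Drd3-Cre transgene and the Cre-dependent Rosa26-fsTRAP allele, which tags the ribosomal protein L10a with EGFP. Mice without further alleles are called WT, and mice that also carried the Htr4-Floxed allele are called cKO. Ribosome-bound RNA was pulled down with anti-EGFP antibodies from ventral DG (vDG) homogenate in 3 WT and 2 cKO libraries (IP). Whole-tissue RNA (input) was sequenced from vDG and from dorsal DG (dDG), with 3 WT and 2 cKO libraries of each. The study describes KI198 Cre as active mainly in mature granule cells and hilar mossy cells and absent from cells other than neurons. Each library was pooled from several animals. The sample records name 3 mice per IP and 2 per input while the methods describe a male and a female per replicate, and the records call the inputs cortex where the titles say DG.

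The wall of a brain vessel is built in layers. Endothelial cells line the lumen and form the blood-brain barrier through tight junctions and transporters, pericytes lie on capillaries inside the shared basement membrane, and smooth muscle cells wrap arteries and arterioles. Fibroblasts of the pia and arachnoid cover the brain surface and follow the larger vessels inward. They secrete collagens and proteoglycans, and the hippocampal fissure brings them next to the DG.

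Libraries held 19039295 to 30451430 counts. The granule cell list (14 genes) differed in mean log2 level by 0.48 to 0.73 between each of the 5 IP libraries and the vDG inputs of the same genotype, and the astrocyte, oligodendrocyte and microglia lists differed by -3.31 to -2.37. *Htr4*, the targeted gene, was not lower in the libraries labelled cKO. It lay at 13.6, 15.9 and 15.6 CPM (counts scaled to library size with TMM factors) in the WT IPs and at 30.2 and 26.8 CPM in the cKO IPs, a log2 fold change of 0.93 (SE 0.17, FDR = 0.0705, edgeR). The allele removes exon 5 alone and these counts sum over the whole gene, so they cannot check the label.

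Most of these genes were rare in the tissue. Of the 34, 23 stayed under 100 counts in every library, and 15 had at least 10 counts in every library. In CPM per kilobase of exon, averaged over the WT vDG inputs, *Bsg* (basigin, a membrane glycoprotein that many cell types make) was highest at 70.0, followed by the prostaglandin D synthase *Ptgds* at 30.5, the signalling regulator *Rgs5* at 7.02 and the glucose transporter *Slc2a1* at 5.41. The growth factor gene *Igf2* lay at 2.23 and *Vtn*, which encodes vitronectin, at 1.33. The other 28 genes were under 1 CPM per kilobase, from *Lum* at 0.897 down to *Slc47a1* at 0.0038 and *Col3a1* at 0.0013. Among the endothelial genes that define the class, the tight junction gene *Cldn5* reached 0.255, the VEGF receptor gene *Kdr* 0.242, the VEGF receptor gene *Flt1* 0.162, the adhesion gene *Pecam1* 0.0565 and *Vwf*, which encodes von Willebrand factor, 0.0201. In bulk RNA, fewer cells of a type and less RNA per cell cannot be told apart.

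The main members lie on GRCm38 (GENCODE M21 gene bounds) as follows, all protein-coding. *Flt1* spans chr5:147561604-147726011 on the minus strand, *Bsg* chr10:79704491-79711969 on the plus strand and *Rgs5* chr1:169655501-169695813 on the plus strand. *Ptgds* spans chr2:25466709-25470046 and *Igf2* chr7:142650766-142666816, both on the minus strand. Exons of *Igf2* overlap those of the protein-coding gene *Gm49394* on the same strand. Exons of *Tagln* overlap *Gm48529* on the other strand, and the libraries did not keep strand. The values of both genes, and those of *Ly6c1*, *Ly6a*, *Abcb1a* and *Slco1a4*, which have close paralogs, are therefore uncertain.

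Endothelial genes as a class are known to be driven by ETS factors, whose sites share a GGAA core. RefSeq promoter windows (GRCm38.p6, reaching from before to just after each start) were at hand for 11 of the 16 endothelial members in 12 windows. The letters AGGAAG, or CTTCCT on the other strand, occurred in 7 of those 12 windows (58.3%) and in 35.4% of all 32851 windows. The 3 stretches printed here come from members that were more than 2-fold higher in 1 WT IP library than in the others (described next), and their capitals mark the match. The first lies at chr5:147726123-147726152 on the minus strand with the match 129 bases upstream of the start, the next at chr2:32646531-32646560 on the plus strand (52 bases) and the last at chr6:141856307-141856336 on the minus strand (104 bases). A match is a description of the letters, not of a bound site.
Flt1: cgcccctccgggAGGAAGaagagggtaggt
Eng: aagcctgtggcaCTTCCTctactcgcctgg
Slco1a4: tcttggcaaatcCTTCCTtggcttggtatt

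The WT IP replicate 1 library stood apart from the other 2 WT IP libraries in its vessel genes. Of the 16 endothelial members, 13 were highest in replicate 1, and 9 of them exceeded both other libraries more than 2-fold. All 4 pericyte members were highest in it, all 4 by more than 2-fold. Among the 16493 genes that passed the count filter over all 15 libraries, replicate 1 was the highest of the 3 for 36.0% and exceeded the others more than 2-fold for 4.41%. *Flt1* had 6.77 CPM (169 counts) in replicate 1 against 1.54 and 1.98 CPM (39 and 50 counts). The efflux pump gene *Abcb1a* had 3.56 CPM against 0.197 and 0.87 CPM, and the pericyte gene *Rgs5* had 20.8 CPM against 5.53 and 7.20 CPM. Of the 3 smooth muscle members 0 were highest in replicate 1, against 6 of 14 further smooth muscle genes. Of the 11 fibroblast members 6 were highest in it, 3 of them by more than 2-fold. WT vDG input replicate 1 was the highest of its own group for 8 of 16 endothelial, 4 of 4 pericyte and 3 of 3 smooth muscle members. It was so for 2 of 11 fibroblast members, 10 of 10 microglia genes and 32.1% of all genes passing the filter. More than 2-fold differences there covered 2 endothelial, 0 pericyte and 0 smooth muscle members.

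Set against the mean of the 3 WT vDG inputs, the mean log2 level of the endothelial members was 0.94 higher in replicate 1 and lower in the other libraries, at -0.50 and -0.47. For pericyte members the differences were -0.08 in replicate 1 against -2.13 and -1.72. A further list of 35 endothelial genes gave 0.31 against -0.42 and -0.45, and a further 16 pericyte genes gave -0.19 against -1.06 and -0.89. The most abundant genes of these lists averaged 45.3 CPM (*Palmd*) and 196 CPM (*Rgs4*) over all libraries, and which cells made them was not tested. For 14 further smooth muscle genes the differences were -0.55 against -0.82 and -0.72. The astrocyte list was lower in replicate 1 (-2.75) than in the others (-2.44 in each), as was the oligodendrocyte list (-3.05 against -2.51 and -2.70). Lists of 7 perivascular macrophage genes (-0.28 against -0.94 and -0.83) and 5 blood genes (-0.82 against -1.30 and -1.37) were higher in replicate 1. So were the microglia list (-2.65 against -2.70 and -3.31), the fibroblast members (-1.15 against -1.49 and -1.62), 32 further fibroblast genes (-0.61 against -0.89 and -0.91) and 13 choroid plexus genes (-0.72 against -0.93 and -0.88). The source of the difference was not tested. In the cKO IPs the endothelial members were at 0.18 and -0.40 and the pericyte members at -0.84 and -0.86. The 2 cKO libraries differed in the same class, as replicate 1 was higher for 13 of 16 endothelial members, 7 of them by more than 2-fold, where 47.4% of all genes passing the filter were higher in it and 6.52% by more than 2-fold. The 35 further endothelial genes did not show this, as 16 were higher in cKO replicate 1 and 18 in replicate 2, 7 of them by more than 2-fold in each, and the list levels were -0.27 and -0.41.

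**Figure D1:**
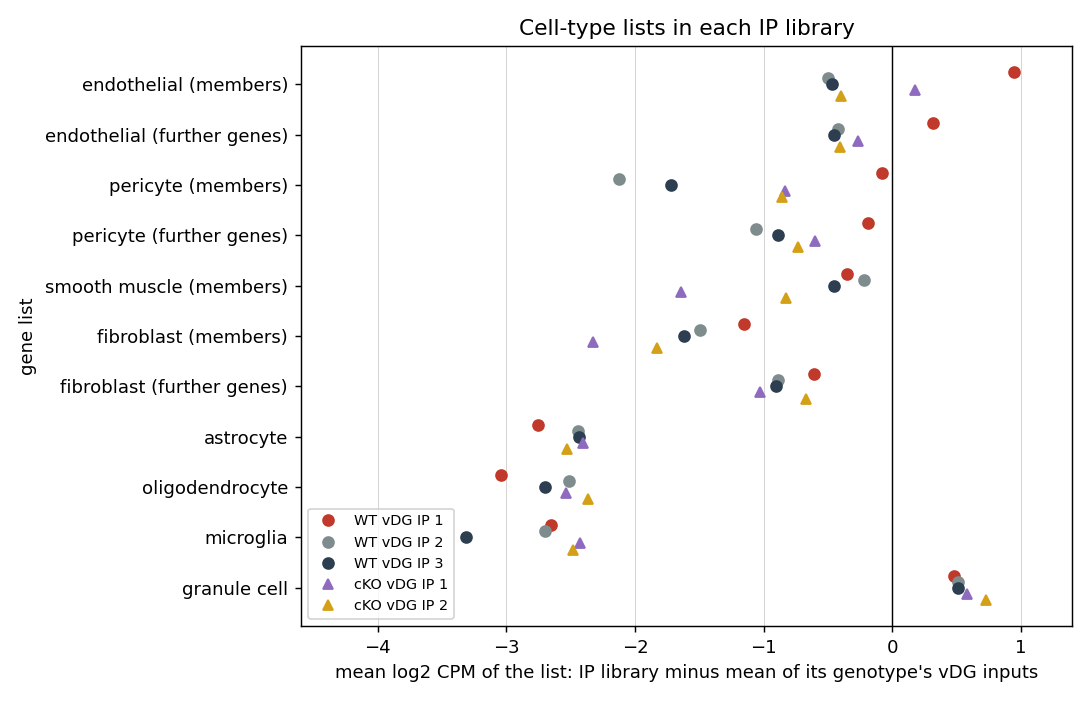
Mean log2 CPM of each gene list in each of the 5 IP libraries (circles WT, triangles cKO), minus the mean over the vDG inputs of the same genotype. WT IP replicate 1 (red) is at 0.94 for the endothelial members and -0.08 for the pericyte members, to the right of the other WT libraries, while it lies to their left for astrocyte (-2.75) and oligodendrocyte (-3.05) genes.

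**Figure D2:**
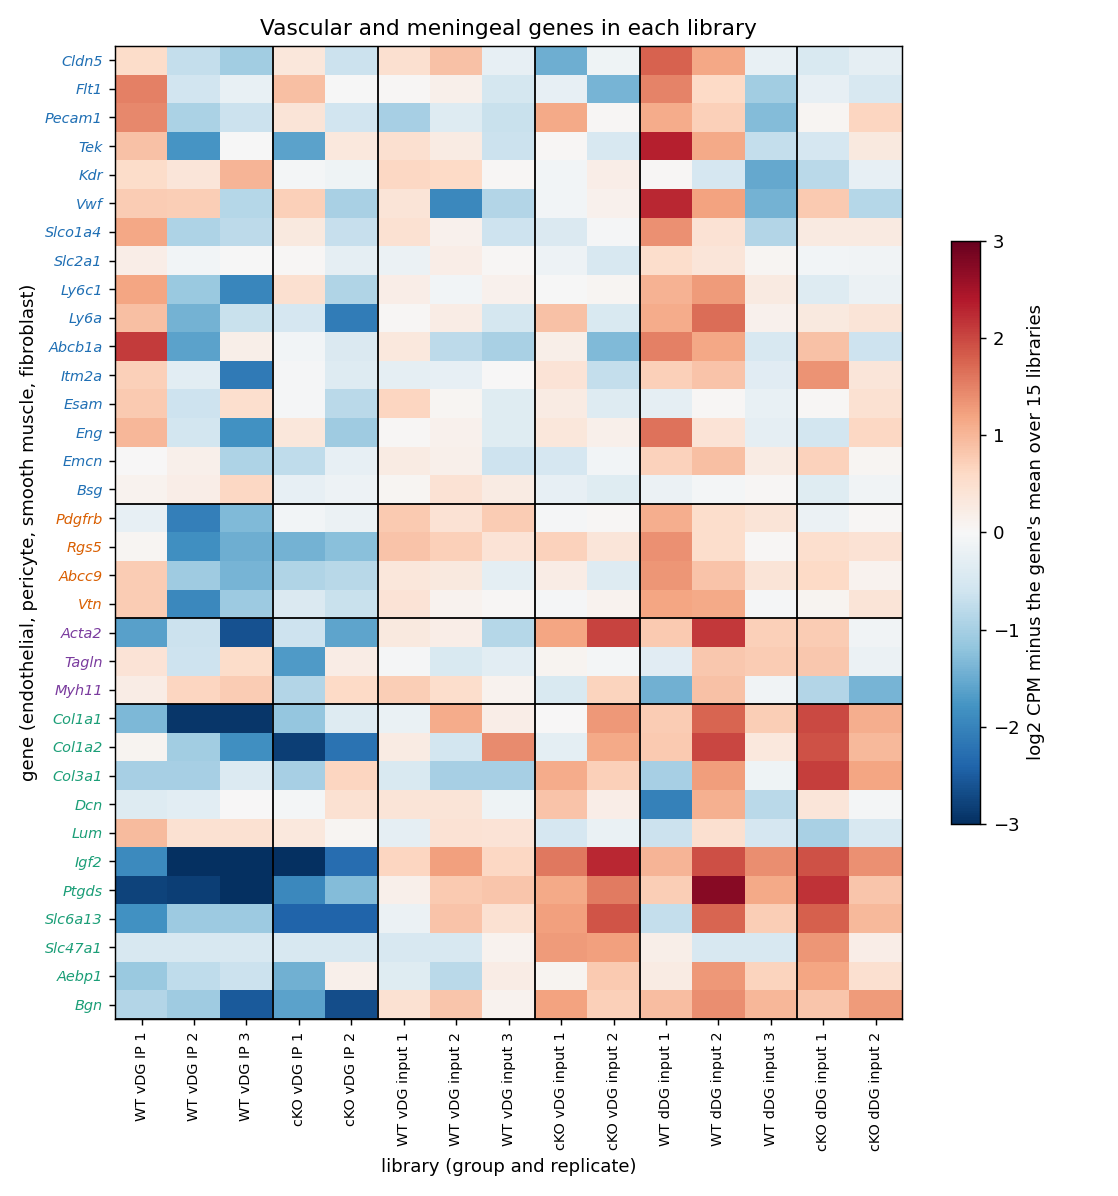
Level of each of the 34 genes in each of the 15 libraries as log2 CPM minus the mean of the gene over all libraries (colour, limited to -3 to 3), with lines between groups and classes. Most endothelial rows are red in WT IP replicate 1 and WT dDG input replicate 1, and *Igf2* and *Ptgds* are blue in all 5 IP libraries and red in most inputs.

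To ask which classes the pull-down removed, IP was compared with input within vDG. In edgeR's quasi-likelihood test a gene was called depleted at an FDR under 0.05 and under 0.5-fold, and enriched at an FDR under 0.05 and past the smaller minimum fold that the study set for enrichment. In WT, 6 of the 29 members tested were depleted and 0 were enriched, where 11.4% of 15011 genes were depleted and 7.72% enriched. In cKO, 7 of 31 were depleted and 0 enriched, where 10.7% of 15126 genes were depleted and 11.4% enriched. In WT the depleted members were 0 of 15 endothelial, 2 of 4 pericyte, 0 of 2 smooth muscle and 4 of 8 fibroblast genes, and in cKO 0 of 15, 1 of 4, 1 of 3 and 5 of 9. These counts are small, and 0 of 15 is not far from the shares of all genes. Whether the classes differ was not tested.

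With all libraries, the low-count filter and no replicate block, 0 endothelial genes passed the edgeR test in either genotype. Their median log2 fold change was -0.01 in WT and -0.19 in cKO, where the medians of all genes tested were 0.00 and -0.03. At an unadjusted p under 0.05 there were 0 of 15 in WT and 2 of 15 in cKO (*Flt1* and *Ly6a*), and DESeq2 called 0 of 16 in both. *Bsg* and *Slc2a1*, the abundant members, gave values close to 0. *Bsg* was at 115, 122 and 165 CPM in the WT IPs and 110, 145 and 126 CPM in the inputs, a log2 fold change of 0.02 (SE 0.15). *Slc2a1*, which carries glucose across the barrier, gave -0.04 (SE 0.15). The groups overlapped for both genes.

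The less abundant barrier genes varied more between libraries. *Flt1* was at 2.38, 2.58 and 1.59 CPM in the WT vDG inputs, inside the range of the IPs, and its log2 fold change was 0.60 (SE 0.46). In cKO it was at 4.42 and 2.29 CPM in the IPs and 1.95 and 0.838 CPM in the inputs, a log2 fold change of 1.21 (SE 0.49, FDR = 0.0853). IP and input did not overlap for *Flt1* in cKO, as was so in this direction for 33.9% of all genes tested. *Flt1* was called enriched in cKO with the replicate number as a block (1.248, FDR = 0.0205), with no low-count filter (FDR = 0.0211) and without cKO IP replicate 2 (1.62, FDR = 0.00124). *Ly6a* was called depleted without cKO IP replicate 1 (-2.89, FDR = 0.00849). *Cldn5* was at 0.401, 0.118 and 0.0791 CPM in the WT IPs, where the highest library had 10 counts, and at 0.372, 0.515 and 0.194 CPM in the inputs. Its log2 fold change of -0.90 (SE 0.70) did not pass the test. Across the other 11 tested endothelial genes the WT log2 fold change ran from -0.21 for the sialomucin gene *Emcn* to 1.36 for *Abcb1a* (SE 0.75), and none passed the test with the low-count filter (without it *Abcb1a* was called enriched, FDR = 0.0412). Between them lay *Tek* (the angiopoietin receptor), *Kdr*, *Vwf*, the organic anion transporter gene *Slco1a4*, the surface antigen genes *Ly6c1* and *Ly6a*, *Itm2a*, the adhesion gene *Esam* and the TGF-beta co-receptor gene *Eng*. *Pecam1* was tested in cKO only (-0.83, SE 0.68). Without WT IP replicate 1 the class median in WT was -0.36, with *Ly6c1* depleted (log2 fold change -1.94, FDR = 0.0445) and the other 14 tested not called.

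Of the pericyte genes, 2 of 4 fell in WT, and 4 of 4 without replicate 1. *Pdgfrb*, the PDGF receptor that marks pericytes, fell from 4.72, 3.67 and 4.62 CPM in the WT inputs to 2.24, 0.592 and 1.03 CPM in the IPs. Every IP library was below every input, as for 21.1% of all genes tested in WT, and the log2 fold change was -1.80 (SE 0.38, FDR = 0.00341). *Rgs5* fell from 36.4, 32.7 and 26.6 CPM to 20.8, 5.53 and 7.20 CPM, by 1.56 on the log2 scale (SE 0.36, FDR = 0.00555), also without overlap. The channel subunit gene *Abcc9* (-0.45, SE 0.52) and *Vtn* (-0.57, SE 0.51) were not called, and their groups overlapped, with replicate 1 above every input. Without replicate 1 all 4 were depleted, and the class median went from -1.07 to -2.08. *Rgs5* then gave -2.38, *Pdgfrb* -2.46, *Vtn* -1.78 and *Abcc9* -1.52 on the log2 scale.

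In cKO, *Rgs5* fell from 32.3 and 25.8 CPM to 7.41 and 8.34 CPM, by 1.93 on the log2 scale (SE 0.18, FDR = 1.03e-05). *Pdgfrb* did not follow it. It was at 2.52 and 2.37 CPM in the cKO IPs and 2.64 and 2.77 CPM in the inputs, a log2 fold change of -0.20 (SE 0.36). The difference of that value from WT was 1.64 on the log2 scale (SE 0.55) and did not pass edgeR's quasi-likelihood test after correction over all genes (unadjusted p = 0.00858). *Abcc9* (-0.93, SE 0.55) and *Vtn* (-0.66, SE 0.41) were lower in both cKO IPs than in both inputs, as were 31.6% of all genes tested, and were not called.

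Smooth muscle genes were at the edge of detection. *Acta2*, smooth muscle actin, had 2, 6 and 0 counts in the WT IPs and 14, 14 and 5 counts in the inputs, which was too few to be tested. In cKO it fell from 1.03 and 1.93 CPM in the inputs to 0.238 and 0.0847 CPM in the IPs, by 3.24 on the log2 scale (SE 0.76, FDR = 0.00758), and without cKO input replicate 2 it was no longer past the threshold (FDR = 0.236). *Tagln*, which encodes transgelin, gave 0.46 (SE 0.49) in WT and -0.56 (SE 0.79) in cKO. The smooth muscle myosin gene *Myh11* gave 0.04 (SE 0.44) and -0.22 (SE 0.79), and neither gene passed the test.

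Fibroblast genes held both the most depleted members and members that the IP kept. *Ptgds*, which meningeal cells, choroid plexus and oligodendrocytes are known to make, fell from 36.3, 56.7 and 57.9 CPM in the WT inputs to 4.73, 4.58 and 3.40 CPM in the IPs, 12.3-fold (log2 fold change -3.62, SE 0.21, FDR = 2.52e-08). In cKO it fell from 72.1 and 96.8 CPM to 8.50 and 13.1 CPM, 8.06-fold (FDR = 6.70e-07). *Igf2*, known from meninges and choroid plexus, fell from 10.97, 16.4 and 10.8 CPM to 1.80, 0.592 and 0.751 CPM in WT, 12.6-fold (FDR = 2.46e-06), and 28.2-fold in cKO (FDR = 8.85e-07). The groups did not overlap for either gene in either genotype. Under other settings or with a library left out, the log2 fold change of *Igf2* ran from -4.28 to -3.36 in WT (-3.65 here). In cKO it ran from -5.51 to -4.35 (-4.82 here). *Bgn*, the proteoglycan biglycan, was lower by 1.99 in WT (SE 0.44, FDR = 0.00467) and by 3.32 in cKO (SE 0.53, FDR = 0.000813), both in log2.

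The collagen and transporter genes were close to the counting limit in the IPs. *Col1a1*, the alpha 1 chain of type I collagen, had 12, 36 and 16 counts in the WT inputs and 4, 0 and 0 counts in the IPs (log2 fold change -3.80, SE 0.88, FDR = 0.00626). All its IP counts came from replicate 1, so the size of this value rests on that library. In cKO it gave -1.80 (SE 0.76, FDR = 0.101). *Col1a2*, its partner chain, was called in cKO only, with 10 and 32 counts in the inputs and 0 and 1 counts in the IPs, a ratio of 0.0286 (95% counting interval 0.000707 to 0.168, FDR = 0.0111), and without cKO input replicate 1 it was not past the threshold (FDR = 0.0531). In WT it gave -1.58 (SE 0.71, FDR = 0.122), and without replicate 1 it was depleted (-2.49, FDR = 0.0397). The GABA transporter gene *Slc6a13*, typical of pial cells, had 24 and 41 counts in the cKO inputs and 0 in both IPs (FDR = 0.00164). It was 18.1-fold lower when the IPs are set to 3 counts over the group, and the 95% counting interval reaches down to 14.3-fold. In WT it was not tested by the model and had 41 counts in the inputs and 7 in the IPs, a ratio of 0.185 (95% counting interval 0.0699 to 0.416). *Col3a1* and the transporter gene *Slc47a1* reached at most 15 counts in any library and did not pass the count filter of the edgeR fits reported here.

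*Lum* and *Dcn*, which encode the small proteoglycans lumican and decorin, were not among the depleted genes. *Lum* was at 3.69, 2.61 and 2.57 CPM in the WT IPs and 1.52, 2.54 and 2.52 CPM in the inputs (log2 fold change 0.38, SE 0.30), so every IP library was above every input, as was so for 20.3% of all genes tested. In cKO both IPs (2.33 and 1.95 CPM) were again above both inputs (1.30 and 1.60 CPM), at 0.50 (SE 0.44), and neither value passed the test. *Dcn* gave -0.53 (SE 0.30) in WT and -0.40 (SE 0.38) in cKO. *Aebp1*, a collagen-binding protein gene, gave -0.70 (SE 0.51) and -1.04 (SE 0.69). The fibroblast class median was -1.78 in WT and -3.01 in cKO over the members that could be tested. On library size alone, without TMM, the median of all genes shifted by -0.13 in WT and -0.17 in cKO, and the same members were called, 6 and 7.

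**Figure D3:**
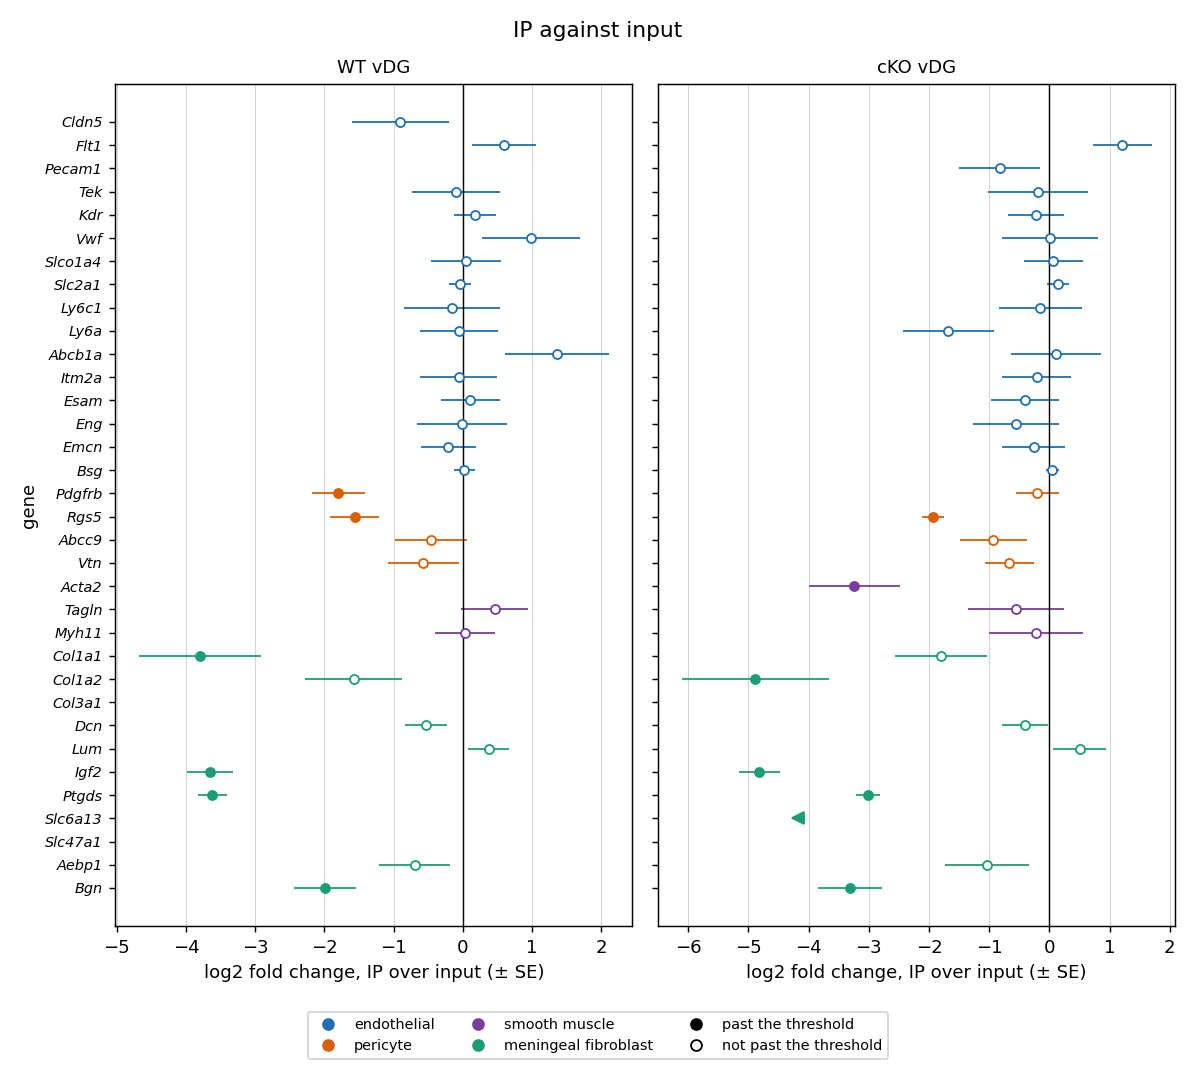
log2 fold change of IP over input in vDG with its SE for each tested gene, WT on the left and cKO on the right, by class (colour), filled where past the threshold. The triangle for *Slc6a13* is drawn at -4.17, the value for 3 counts over the IPs, which held 0. Endothelial genes scatter around 0 while *Igf2* and *Ptgds* lie at -3.65 and -3.62 in WT.

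Further genes of each class, not members, were read beside those of glia. In all, 10 of 10 astrocyte, 9 of 10 oligodendrocyte and 10 of 10 microglia genes were depleted in WT, with medians of -2.72, -3.14 and -3.47. Of 25 further endothelial genes tested in WT, the transporter genes *Slco1c1* (-1.37, FDR = 9.03e-05) and *Slco2b1* (-2.08, FDR = 0.00149) were depleted and the transcription factor gene *Sox18* was enriched (0.60, FDR = 0.0487), with a median of -0.06. In cKO *Slco1c1* was depleted again (-1.42, FDR = 0.00734), *Slco2b1* (-1.84, FDR = 0.0602) and *Sox18* (0.62, FDR = 0.0770) were not called, and of 27 tested *Lsr* was also depleted and *Slc7a5* enriched. Of 9 further pericyte genes edgeR called 0 (4 at an unadjusted p under 0.05), with a median of -0.85, and of 6 further smooth muscle genes *Heyl* and *Mylk* were depleted. Of 18 further fibroblast genes, *Aldh1a2*, *Cyp1b1* and *Gjb2* were depleted and *Col12a1* was enriched (0.71, FDR = 0.0187), as it was in cKO (0.81, FDR = 0.0361). *Aldh1a2* makes retinoic acid and *Gjb2* encodes a connexin, and both are used as meningeal markers. In cKO, of 10 further pericyte genes *Cspg4* was enriched (0.90, FDR = 0.0384) and *Tbx18* depleted (-3.17, FDR = 0.0400), with a median of -0.60, and of 7 further smooth muscle genes *Heyl*, *Myl9* and *Mylk* were depleted. Of 22 further fibroblast genes 6 were depleted in cKO, and the median was -0.57 where it was 0.14 in WT.

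The signals that pass between neurons, glia and vessels were also followed. Of 23 ligand and receptor genes tested in WT, 6 were depleted and 0 enriched (11 at an unadjusted p under 0.05), with a median of -0.46, and in cKO 10 of 22 were depleted and 2 enriched, the VEGF and semaphorin co-receptor genes *Nrp1* (0.34) and *Nrp2* (0.39). Those 2 are the most abundant genes of that list, and *Wnt7b*, the next, was not called. Of the 11 basement membrane genes tested in WT, *Sparc* was depleted (-3.27, FDR = 7.93e-09) and *Agrn*, which encodes agrin, was enriched (0.49, FDR = 0.0137). Of 12 tested in cKO, *Sparc* (-2.74, FDR = 3.83e-06) and *Nid1* (-1.58, FDR = 0.0282) were depleted, *Col4a2* was enriched (0.80, FDR = 0.0294) and *Agrn* was not called (0.28, FDR = 0.177).

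The regions were compared in the inputs. In WT, 1 of 32 members was lower in vDG than in dDG and 0 were higher, where 6.09% of 15412 genes were lower and 9.26% higher. That member was *Ptgds*, at 36.3, 56.7 and 57.9 CPM in vDG and 54.1, 217 and 71.9 CPM in dDG, or -1.16 in log2 fold change (SE 0.35, FDR = 0.0301). The ranges overlapped, and replicate 2 of dDG was far above the others. Without that library *Ptgds* gave -0.31 (FDR = 0.358) and *Dcn* was called higher (1.60, FDR = 0.0261). *Ptgds* was also lost without any single vDG input. DESeq2 did not call *Ptgds* and called *Igf2* (-0.62, FDR = 0.0429). Oligodendrocyte genes moved the same way, with 7 of 10 lower in WT vDG (median -0.62) and 4 of 10 lower in cKO vDG (median -0.66), and their part in the *Ptgds* value was not tested.

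The dDG inputs of WT mice differed among themselves. WT dDG replicate 1 was the highest of its group for 10 of 16 endothelial and 4 of 4 pericyte members, and replicate 3 for 1 of 16 and 0 of 4, where they were highest for 34.8% and 35.7% of all genes passing the filter. Replicate 1 was also the highest for 16 of 35 further endothelial, 8 of 16 further pericyte and 10 of 10 microglia genes. *Flt1* was at 6.69, 3.54 and 1.09 CPM in replicates 1 to 3, *Tek* at 3.32, 1.396 and 0.33 CPM, and *Rgs5* at 51.4, 28.8 and 20.4 CPM. Replicate 2 was the highest for 10 of 11 fibroblast members, 7 of them by more than 2-fold, and for 3 of 3 smooth muscle members. It was the highest for 29.5% of all genes passing the filter and by more than 2-fold for 1.51%. Among further genes it was the highest for 19 of 32 fibroblast and 5 of 14 smooth muscle genes. Choroid plexus genes also moved between these libraries. *Ttr*, which encodes transthyretin, was at 4.13, 72.8 and 121 CPM in them and at 1.60 to 11.4 CPM in the other 7 inputs. The whole list of 13 choroid genes summed to 63.4 to 211 CPM in the WT dDG inputs, 48.6 to 54.8 in the WT vDG inputs, 41.9 to 58.2 in the cKO vDG inputs and 45.6 to 51.8 in the cKO dDG inputs, with 0 to 1 of them at 0 throughout a group. In the IPs it summed to 35.3 to 40.3 CPM in WT and 29.9 to 37.9 CPM in cKO, with 5 of 13 at 0 in each (*Folr1*, *Otx2*, *Aqp1* and *Kcne2* in both). The part of choroid plexus RNA in the *Ptgds* and *Igf2* values was not tested.

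No endothelial gene was called between the regions in WT. Of the 16, 13 had a log2 fold change below 0, the median was -0.73 against -0.01 for all genes tested, 6 had an unadjusted p under 0.05 where 4193 of 15412 genes did, and DESeq2 called 0. The 29 further endothelial genes tested had a median of -0.16. *Tek* gave -1.34 (SE 0.62), *Abcb1a* -1.38 (SE 0.55), *Ly6a* -1.18 (SE 0.43) and *Vwf* -1.997 (SE 0.81). *Kdr* went the other way, at 2.49, 2.44 and 1.63 CPM in vDG and 1.62, 1.10 and 0.496 CPM in dDG (1.08, SE 0.41, FDR = 0.0933), and so did *Bsg* (0.34, SE 0.12, FDR = 0.0682). Without WT dDG replicate 3, 8 members were called lower in vDG (*Abcb1a*, *Flt1*, *Ly6a*, *Pecam1*, *Ptgds*, *Tek*, *Vtn* and *Vwf*), where 892 of 15842 genes were lower. With the replicate number as a block, 2 members were higher in vDG (*Bsg* and *Kdr*) and 6 lower (*Abcb1a*, *Acta2*, *Igf2*, *Ly6a*, *Ptgds* and *Vwf*), where 1717 and 1230 of 15412 genes were. Whether equal numbers mark the same mice is not given in the sources used here. Among pericyte genes *Pdgfrb* (0.00, SE 0.24) and *Rgs5* (-0.05, SE 0.24) gave values close to 0, and *Abcc9* was at -0.75 (SE 0.33).

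In cKO, 0 of 30 members differed between vDG and dDG inputs by edgeR, where 8.56% of 15505 genes were higher in vDG and 8.47% lower. At an unadjusted p under 0.05 there were 2 (*Itm2a* at -1.04 and *Acta2* at 1.38), and DESeq2 called 0 of 34. With the replicate number as a block these 2 were called, *Acta2* higher and *Itm2a* lower, where 1873 of 15505 genes were higher and 1986 lower. The endothelial median was -0.21 and that of the fibroblast genes -0.08, against 0.01 for all genes. *Ptgds* was at 72.1 and 96.8 CPM in vDG and 147 and 58.2 CPM in dDG, so that the dDG libraries lay on both sides of the vDG ones. Of the 2 cKO dDG inputs, replicate 1 was higher for 9 of 11 fibroblast members, 25 of 32 further fibroblast genes and 3 of 3 smooth muscle members. In it 11 of 13 choroid plexus genes were higher, 8 by more than 2-fold. Over all genes passing the filter these shares were 50.6% and 4.06%. It was higher for 7 of 16 endothelial members, 2 of 4 pericyte members and 5 of 14 further smooth muscle genes. Each single library left out brought calls, but it leaves 1 library in its group, without spread within it. These calls are therefore not results about the members. Leaving out cKO dDG replicate 1 called *Igf2* and *Ptgds* higher in vDG, and leaving out replicate 2 called *Itm2a* and *Ptgds* lower. Leaving out cKO vDG replicate 1 called *Acta2* and *Igf2* higher and *Itm2a* lower, and leaving out replicate 2 called *Ptgds*, *Col1a1* and *Col1a2* lower.

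Further endothelial and fibroblast genes were called in both directions between the regions in both genotypes. Of 29 further endothelial genes tested, 6 were higher in WT vDG and 3 lower (*Apcdd1*, *Foxq1* and the amino acid transporter gene *Slc38a5*), and in cKO 6 were higher and 3 lower (*Adgrl4*, *Slc38a5* and *Slco2b1*). Over all genes 9.26% were higher and 6.09% lower in WT vDG, and 8.56% and 8.47% in cKO vDG. *Palmd* (0.93 in WT, 0.59 in cKO) and the carbonic anhydrase gene *Car4* (0.86 and 1.52), both among the 3 most abundant of that list, were higher in vDG in both. Of the further fibroblast genes 6 of 21 were higher and 2 lower in WT vDG (*Islr* and *Slc13a4*). In cKO vDG 5 of 24 were higher (*Col12a1*, *Fbln1*, *Ogn*, *Thbs2* and *Twist1*) and 1 lower (*Islr*). *Islr*, the most abundant, was lower in vDG in both (-1.55 and -1.19), and *Fbln1* (0.65 and 1.13) and *Col12a1* (3.10 and 2.23) were higher. Of 11 further pericyte genes 1 was higher in vDG (*Ecm2*) and 0 were lower in each genotype. Which cells made *Palmd*, *Car4* and *Ecm2* was not tested. Of the further smooth muscle genes 1 of 6 was higher in WT (*Mylk*) and 3 of 7 in cKO (*Myl9*, *Mylk* and *Olfr558*), and 0 were lower.

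**Figure D4:**
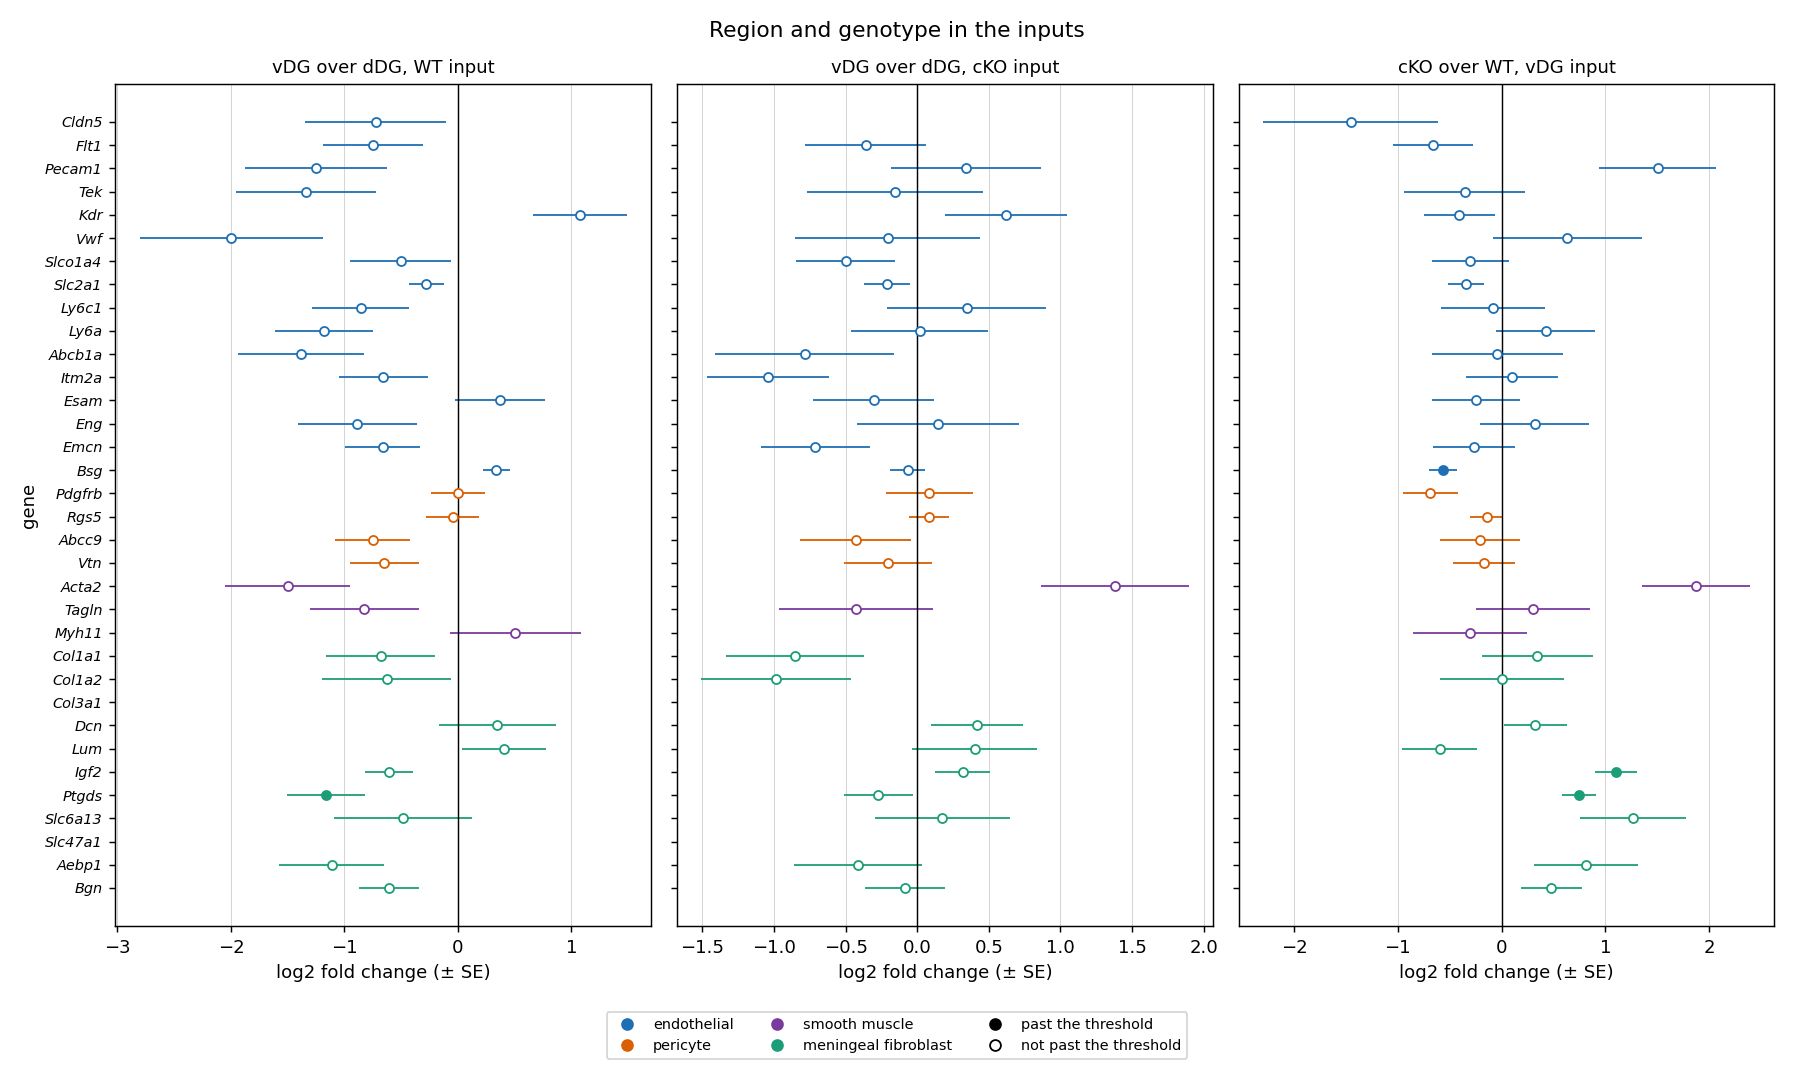
log2 fold change with its SE for each tested gene in the inputs, for vDG over dDG in WT (left) and cKO (middle) and for cKO over WT in vDG (right), filled where past the threshold (the axes differ in range). *Ptgds* is filled on the left at -1.16, none is filled in the middle, and *Bsg* (-0.56), *Igf2* (1.10) and *Ptgds* (0.75) are filled on the right.

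Libraries labelled cKO were compared with WT in each tissue fraction. In the vDG input 2 of 32 members were higher and 1 lower, where 0.108% of 15786 genes were higher and 2.33% lower. *Igf2* was at 21.0 and 33.8 CPM in cKO and 10.97, 16.4 and 10.8 CPM in WT, a log2 fold change of 1.10 (SE 0.20, FDR = 0.00515). *Ptgds* was at 72.1 and 96.8 CPM against 36.3, 56.7 and 57.9 CPM, 0.75 (SE 0.17, FDR = 0.0169). Both cKO libraries lay above all 3 WT libraries for both genes, as was so for 15% of all genes tested (17.6% lay below).

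*Bsg*, the lower gene, was at 90.5 and 82.5 CPM in cKO and 110, 145 and 126 CPM in WT, again without overlap (-0.56, SE 0.14, FDR = 0.0263). With all 15 libraries in a single fit none of the 3 calls held, and none held without cKO vDG input replicate 2, the library with more RNA of *Igf2* and *Ptgds*. *Ptgds* was also lost without cKO input replicate 1, and *Bsg* without that library or without WT input replicate 2 or 3. *Ttr* was higher as well, at 4.71 and 11.4 CPM in cKO and 3.02 to 4.85 CPM in WT (1.11, FDR = 0.0372), while the 8 choroid plexus genes tested split into 4 above and 4 below 0 (median 0.07). Between the 2 cKO vDG inputs, 11 of 13 choroid plexus genes were higher in replicate 2, 8 of them by more than 2-fold. Of all genes passing the filter 47.8% were higher in replicate 2 and 4.41% by more than 2-fold. The part of choroid plexus genes in the difference was not tested. Other fibroblast genes gave values on the same side without a call, as in *Slc6a13* (1.27, SE 0.51, FDR = 0.224), *Aebp1* (0.81, SE 0.50) and *Bgn* (0.48, SE 0.29), and 8 of the 9 tested had a log2 fold change above 0 (median 0.48 against 0.01 for all genes). *Lum* was the exception (-0.60, SE 0.36). The 25 further fibroblast genes tested did not share this, with 13 above and 12 below 0 and a median of 0.00. *Col3a1* had 7 and 5 counts in cKO and 1, 0 and 0 counts in WT, a ratio of 18.3 (95% counting interval 2.71 to 783), and *Slc47a1* had 5 and 5 against 0, 0 and 1, a ratio of 15.3 (2.17 to 662).

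*Acta2* was at 1.03 and 1.93 CPM in the cKO vDG inputs and 0.521, 0.481 and 0.194 CPM in WT, with no overlap, and missed the threshold (1.87, SE 0.52, FDR = 0.0547), which it passed without WT input replicate 1 and with no low-count filter (FDR = 0.0108). The endothelial genes other than *Bsg* and the pericyte genes were not called. Their medians were -0.26 (endothelial, *Bsg* included) and -0.19. *Pecam1* stood at 1.503 (SE 0.56, FDR = 0.182) and *Pdgfrb* at -0.69 (SE 0.26, FDR = 0.191), with 2.64 and 2.77 CPM in cKO against 3.67 to 4.72 CPM in WT. Further pericyte genes held 2 lower in cKO, the matrix gene *Ecm2* (-0.98, FDR = 0.00496) and *Cspg4* (-0.91, FDR = 0.0394), which oligodendrocyte precursors also express. *Sparc* (-0.88, FDR = 0.00418) and *Col12a1* (-0.81, FDR = 0.0313) were lower as well, and so were 5 of 10 astrocyte genes (*Aqp4*, *Gja1*, *Gjb6*, *Slc1a2* and *Slc1a3*). All 10 microglia genes had values below 0 (median -0.62) and 0 were called by edgeR (2 at an unadjusted p under 0.05). The part of both lists in the vessel values was not tested.

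**Figure D5:**
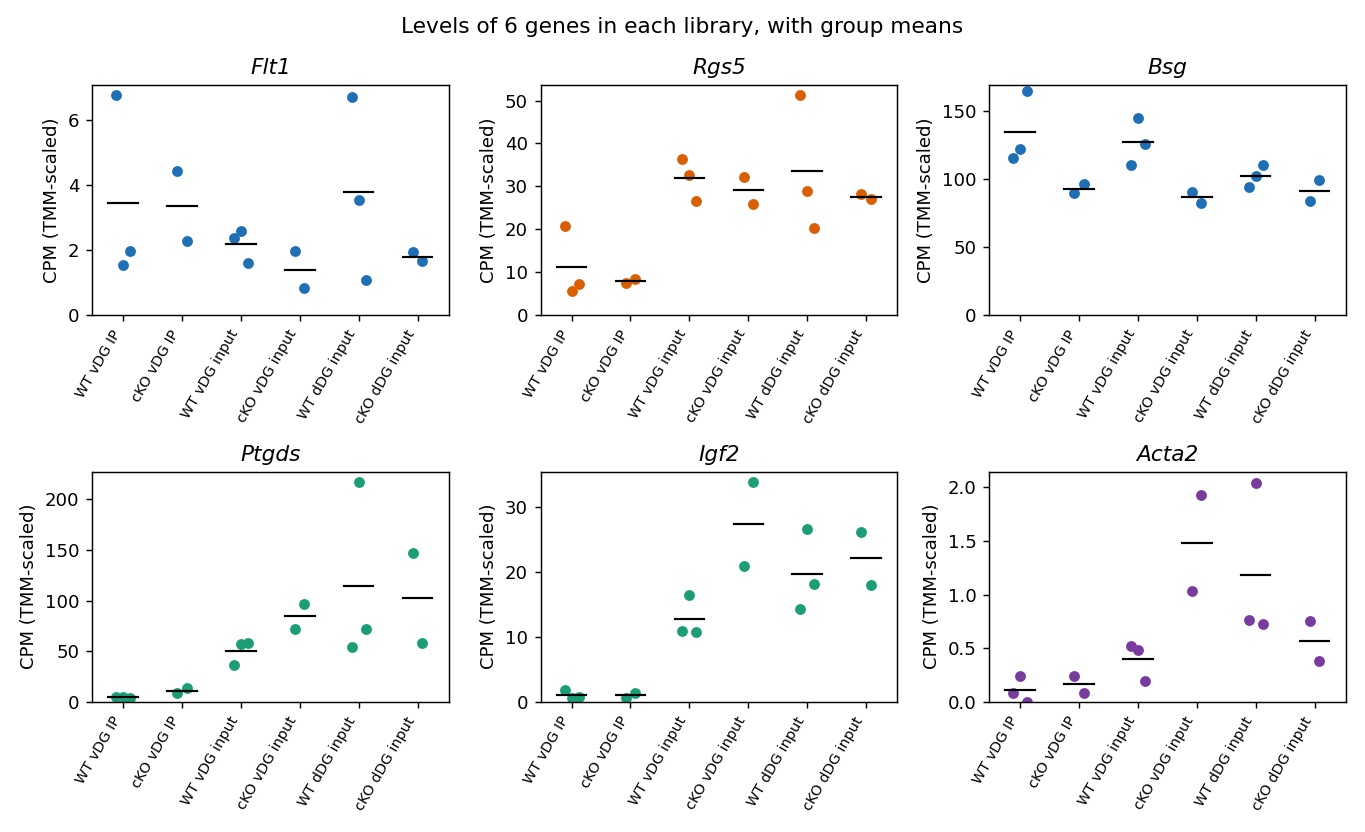
CPM of 6 genes in each library (points) with group means (lines), each axis from 0. *Ptgds* and *Igf2* are low in all IPs and spread widely among the dDG inputs, with 217 CPM of *Ptgds* in WT dDG replicate 2, while *Flt1* is high in 1 of 3 WT IPs (6.77 CPM).

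In the vDG IPs, where the study's threshold is an FDR under 0.1, 1 of 27 members was higher in cKO and 0 were lower, where 0.0699% of 14300 genes were higher and 0.35% lower. *Ptgds* was at 8.50 and 13.1 CPM in the cKO IPs and 4.73, 4.58 and 3.40 CPM in WT, without overlap (1.36, SE 0.26, FDR = 0.0705), where 14% of all genes tested were above WT without overlap. The same gene was higher in the cKO inputs, and the difference between the IP and input values, 0.63 (SE 0.32), did not pass the interaction test. DESeq2, the fit of all 15 libraries and the fit with the replicate number as a block did not call *Ptgds*. It was also lost without WT IP replicate 2 or without either cKO IP. *Bsg* was at 89.3 and 96.4 CPM in cKO and 115 to 165 CPM in WT (-0.52, SE 0.16, FDR = 0.249), and DESeq2 called it (FDR = 0.0786), as did the fit without WT IP replicate 1. All 15 endothelial genes tested had log2 fold changes below 0 (median -0.32). So had 20 of 27 further endothelial genes (-0.21), 9 of 10 astrocyte genes (-0.49, 4 at an unadjusted p under 0.05) and 5 of 5 choroid plexus genes (-0.23), and their part was not tested. Without WT IP replicate 1 the median of the 12 still tested was -0.06, 5 were above 0, and the pericyte median went from -0.37 to 0.69.

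In the dDG inputs 0 of 32 members differed between the genotypes, where 0.0065% of 15383 genes were higher in cKO and 0.026% lower. There were 4 at an unadjusted p under 0.05, where 1881 of 15383 genes were (*Cldn5* at -1.81, *Slc2a1* at -0.42, *Ly6c1* at -1.30 and *Pdgfrb* at -0.78), and DESeq2 called 0 of 34. With the replicate number as a block *Flt1* was called lower in cKO, where 62 of 15383 genes were higher and 75 lower. The endothelial median was -0.53 and the pericyte median -0.58 against -0.02 for all genes, with the WT libraries spread as above. Other cell types moved as well, since 10 of 10 microglia genes (median -0.56, 6 at an unadjusted p under 0.05), 4 of 4 blood genes (-1.36) and 9 of 9 choroid plexus genes (-2.07) were below 0, and their part in the vessel values was not tested. The difference between genotypes was tested for a change with fraction and with region, and 0 of 32 members passed in each case, where 0% of 16093 and 0% of 16306 genes were called in either direction. At an unadjusted p under 0.05 there were 2 (*Pdgfrb* and *Slc6a13*) and 3 (*Acta2*, *Igf2* and *Bsg*), where 497 of 16093 and 2010 of 16306 genes were, and DESeq2 called 0 in both.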

How the data were processed

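RNA-seq libraries of TRAP IP and input RNA were made by the authors with NuGEN Ovation amplification and a kit that does not keep strand, aligned with STAR 2.4.2a to mm10, cleared of duplicates with SAMtools and counted per gene with HTSeq. The deposited values used here are raw whole-number counts, 1 file per library. The authors' 5 tables of normalized values and of their own comparisons were not used. Counts were tested with edgeR 4.0.16 (R 4.3.3, quasi-likelihood F-test, TMM, filterByExpr, two-sided, FDR over all genes tested). Each pair of groups was fitted alone, at an FDR under 0.05 (0.1 for cKO against WT IP). DESeq2 1.42.0, other scalings and filters, a replicate block and leaving out each library were alternatives. Levels are TMM-scaled CPM over 15 libraries, with a prior count of 2 on the log2 scale. The edgeR fit and its calling rule were tested on counts simulated with a fixed dispersion, and the other steps were not tested in this way. Replicates are pooled samples, so p-values measure only the spread between these samples. No molecular identifiers are named, so counting intervals cover counting error only. The 34 members and all lists were chosen with earlier results of these data known. All 34 members are named, and of each further list at most the 3 most abundant genes, plus most called genes that a count of 5 or fewer refers to. 5 genes of the further lists were not found in the files.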

Additional observations from a re-analysis of the deposited data

How the results depend on the processing

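The 18 gene values past a threshold were recomputed under 209 alternatives in all. Of these, 186 kept the direction and the side of the threshold, 23 kept the direction only and 0 reversed. The depleted WT members held in every alternative in which they were tested. Counts of called members depended on the setting as follows, and the cause was not tested. With no low-count filter, 1 member was enriched in WT (*Abcb1a*) and 1 in cKO (*Flt1*), 2 were higher and 7 lower in WT vDG than dDG, 1 higher and 1 lower in cKO vDG than dDG, 1 lower in cKO than WT IP (*Bsg*), 3 higher in cKO than WT vDG input (with *Acta2* added), and 3 higher in the region interaction. Over all genes in that setting, 1623 of 21740 were enriched in WT and 1925 of 21035 in cKO. In vDG against dDG 1672 were higher and 1067 lower of 22165 in WT, and 1521 and 1449 of 21568 in cKO. For cKO against WT, 297 of 20159 were lower in the IP and 50 of 21994 higher in the vDG input. In the region interaction 120 of 22868 were higher and 242 lower. With at least 10 counts in every library, 3 members were depleted in cKO, as fewer were tested, and 936 of 13128 genes were. On library size alone 1 member (*Bsg*) was higher in WT vDG than dDG, where 1547 of 15412 genes were. DESeq2 and the fit of all 15 libraries each gave 0 higher and 1 lower for cKO against WT IP, and the latter gave 0 higher and 0 lower for cKO against WT vDG input. Over all genes DESeq2 called 78 higher and 296 lower of 20159 in the IP, and the fit of all libraries 100 and 370 of 16493. In the vDG input the fit of all libraries called 6 higher and 134 lower.

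With the replicate number as a block, 1 member was enriched in cKO (*Flt1*), 2 were higher and 6 lower in WT vDG than dDG, 1 higher and 1 lower in cKO, 0 higher for cKO against WT IP and 1 lower in the dDG inputs (*Flt1*). Over all genes 2152 of 15126 were enriched in cKO, 6 of 14300 higher for cKO against WT IP and 75 of 15383 lower in the dDG inputs. The gene counts for the regions are given above. The numbers were not taken to pair the samples. In deviations from the group means, same-numbered WT IP and input libraries correlated at 0.23, -0.0014 and -0.039, and differently numbered ones at -0.19 to 0.19. For WT vDG and dDG inputs the values were 0.25, 0.047 and 0.18 against -0.22 to 0.048. These values cannot settle whether mice were shared. The methods take input RNA from the homogenate used for the IP and describe dissection of both regions, but the mice named per IP and per input differ, and no source says that a number marks shared mice. The numbers of the 2 cKO dDG libraries also differ between their titles, followed here, and their deposited names, so the block values that use them depend on which is right.

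Leaving out each library in turn gave 6 to 10 depleted members in WT and 5 to 8 in cKO, with 0 and 0 to 1 enriched. For vDG against dDG it gave 0 to 1 higher and 0 to 8 lower in WT and 0 to 2 higher and 0 to 3 lower in cKO. For cKO against WT it gave 0 to 1 higher and 0 to 1 lower in the IP, 0 to 3 higher and 0 to 1 lower in the vDG input and 0 in the dDG input. With single WT libraries left out, 1426 to 1862 of all genes were depleted in the WT IP and 588 to 1584 enriched. In WT vDG against dDG 1033 to 1304 were higher and 620 to 892 lower. Leaving out a cKO library leaves 1 in its group, without spread within it. In depth, 23 of 34 members were under 100 counts in every library.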

Other observations

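Cells that lie inside or beside the vessels without forming their wall were followed as well. The list of 7 perivascular macrophage genes was lower in mean log2 level in all 5 IP libraries than in the vDG inputs of the same genotype, by -0.28, -0.94 and -0.83 in WT and -0.89 and -0.63 in cKO, and 0 of the 3 genes tested in WT passed the test (1 at an unadjusted p under 0.05). WT IP replicate 1 was again the highest of the WT libraries. *Cd163*, *Lyve1* and *F13a1* were its most abundant genes, at most 1.78 CPM in any library. The blood list held 5 genes, and the haemoglobin genes *Hba-a2* and *Hbb-bs* were depleted in the WT IPs, with *Hbb-bs* also depleted in cKO. The list differed from the vDG inputs by -0.82 in WT IP replicate 1 and by -1.30 and -1.37 in the others.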
